A study of Arabidopsis thaliana with 12 samples.

Results

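The WRKY transcription factors of Arabidopsis thaliana were described in a mettl16 mutant set against the accession Col-0. Members were the genes of the authors' expression table whose description names WRKY, leaving out genes whose description also names NBS-LRR or NB-ARC, the domains of intracellular immune receptors. This gave 63 genes of the 25566 in the table, and 14 of the 6437 entries of the authors' m6A peak table lay on 11 of them. The rule reads descriptions and uses no measured value. All 63 locus numbers matched a RefSeq symbol, and 62 of the genes carry a WRKY number in their symbol or synonyms. The other is AT4G31805, which the table describes as a WRKY factor and RefSeq names POLAR, a polarity protein of dividing cells in the stomatal lineage. It was kept as a member and is given apart from the subgroups.

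The series holds 12 samples in 4 groups of 3 replicates: m6A immunoprecipitates and RNA-seq (input) libraries of the mettl16 mutant, and the same of Col-0. Every sample was polyadenylated RNA of the aerial part of plants aged 3 weeks, grown at 23 °C with 16 h of light and 8 h of darkness a day, and no treatment is named. The labels give Col-0 as the ecotype of the mutant too. They do not say what the mettl16 mutation is. The series asks how m6A bears on the floral transition, with Col-0 as its baseline.

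WRKY proteins are plant transcription factors named after the conserved amino acids of their DNA-binding domain, which ends in a zinc finger and binds the W-box, a short motif common in the promoters of defence genes and of WRKY genes themselves. Group I proteins carry a pair of these domains, while group II and group III proteins carry a single domain and differ in the type of zinc finger. In leaves, many members are induced by pathogens, salicylic acid or ageing, and several are phosphorylated by MAP kinases, while others act in trichomes, seeds, stems, phosphate supply or flowering time. N6-methyladenosine (m6A) is a methyl mark on adenosines of RNA, most frequent near stop codons and in 3′ UTRs of messenger RNA. METTL16 is an m6A methyltransferase that is best known for methylating the U6 small nuclear RNA, and its Arabidopsis homologue is FIO1.

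Expression was read from the authors' FPKM values (fragments scaled by transcript length and library size) of the 6 RNA-seq libraries. FIO1 (AT2G21070) had 0.292, 0.148 and 0.197 FPKM in the mettl16 libraries, against 1.98, 2.13 and 2.31 FPKM in the Col-0 libraries (log2 change -1.37, limma adjusted p = 4.94e-07). The FPKM of all genes summed to 699031 to 706690 in mettl16 and 714685 to 718824 in Col-0, and Pearson correlations across the tested genes, which are not independent replicates, were 0.994 to 0.996 within a genotype and 0.957 to 0.959 between genotypes. The aerial parts differed in transcripts that mark organs: 12 of 12 tested markers of floral organs and anthers (14 were listed) were higher in mettl16. Among all tested genes 41.1% were higher. All tested markers other than SEP1 averaged under 0.5 FPKM in Col-0, below the filter of the test, and entered it through mettl16 alone. The 14 listed markers summed to 94.1 to 96.8 FPKM in mettl16, against 2.92 to 3.14 FPKM in Col-0, where STK, A9, A6 and ATA7 were listed at 0 in every library. The largest changes were those of the floral regulators SEP3, AP3, AP1 and PI, at 4.27, 3.41, 3.34 and 3.13 on the log2 scale. Of 5 leaf markers, RBCS2B, LHCB2.1 and LHCB1.1 were lower in mettl16, at -1.29, -0.81 and -0.61, beside 23.4% lower among all tested genes. RBCS1A was higher by 0.09 with overlapping libraries (limma adjusted p = 0.0442). That call was lost in 7 of 14 other settings. Among them were those without the first or the third mettl16 replicate or the second or the third Col-0 replicate. CA1 overlapped between genotypes and did not pass (log2 change 0.003, limma adjusted p = 0.941). The leaf markers had sums of 33287 to 36008 FPKM in mettl16 and 40066 to 41531 FPKM in Col-0. Of the 4 root markers in the table, PYK10 had 63.9 to 67.9 FPKM in mettl16 and 63.3 to 65.5 FPKM in Col-0 and did not pass the test. The other 3 were too low to be tested. WOX5 had 0.206 to 0.312 FPKM in mettl16 and 0.0822 to 0.332 FPKM in Col-0. COBL9 and IRT1 were listed at 0 in Col-0, and IRT1 had 0.0796 to 0.140 FPKM in mettl16. Whether the organs themselves differed, and what part this had in the WRKY results, was not tested. In whole aerial parts fewer cells that express a gene and less RNA per cell cannot be told apart.

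Most WRKY transcripts that could be tested were lower in mettl16. The test was limma on log2(FPKM + 1) across the 19505 genes that averaged 0.5 FPKM or more, with Benjamini-Hochberg adjustment over those genes and a threshold of 0.05. Of 49 members tested, 30 were lower in mettl16, where 23.4% of all tested genes were, and 9 were higher, where 41.1% of all tested genes were. The remaining 10 tested members did not pass, and 14 members were too low to be tested. Past a change of 0.5 on the log2 scale, 18 members were lower, against a background of 7.15%, and 4 were higher, against 13.7%. In 31 tested members all mettl16 libraries lay below all Col-0 libraries, a pattern seen in 25.9% of tested genes. The opposite order held for 10 members and for 43.9% of tested genes. The median log2 change was -0.25 over the tested members, with a range of -1.94 to 0.66, and 0.08 over all tested genes. A member could enter through 1 genotype alone: WRKY30, WRKY38, WRKY62, WRKY28 and WRKY75 averaged under 0.5 FPKM in mettl16, and WRKY74 did so in Col-0.

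**Figure D1:**
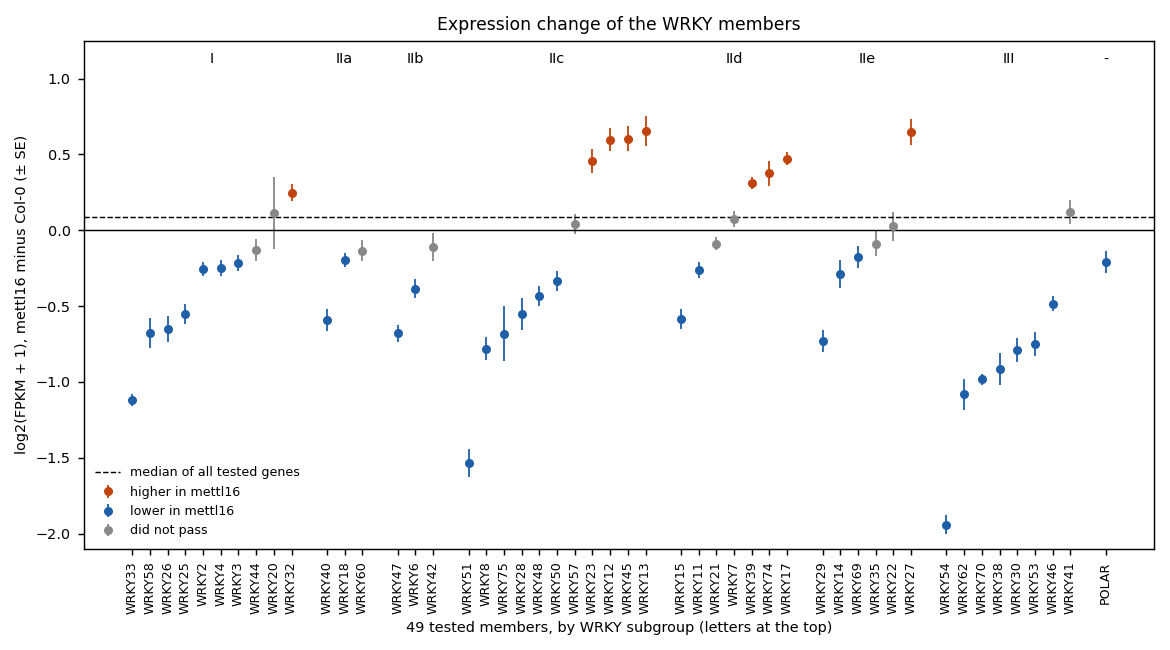
Difference in log2(FPKM + 1), mettl16 minus Col-0, of the 49 tested WRKY members, ordered by subgroup and by size, with bars of ± 1 standard error from the limma fit. Blue members were lower and orange members higher in mettl16 at an adjusted p under 0.05, the dashed line is the median of all tested genes at 0.08, and the lowest point of subgroup III is WRKY54 at -1.94.

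Group III had the lowest median change of the subgroups and the lowest single value. These genes include central factors of salicylic acid defence and of leaf ageing. Of 10 members, 8 were tested. Among these 7 were lower in mettl16 and none was higher, beside 23.4% lower and 41.1% higher among all tested genes. WRKY41 did not pass, and the median log2 change of the group was -0.85. WRKY30, WRKY38 and WRKY62 averaged under 0.5 FPKM in mettl16 and entered the test through Col-0 alone. WRKY54 (AT2G40750, chr2:17000454-17002468, minus strand), a salicylic acid-responsive factor that holds back leaf senescence together with WRKY70, had 2.17, 2.28 and 2.57 FPKM in mettl16 libraries, against 12.3, 11.6 and 11.5 FPKM in Col-0 libraries. The genotypes lay far apart, and the log2 change of -1.94 (SE 0.0619, limma adjusted p = 6.21e-09) was the lowest of the family on the log2(FPKM + 1) scale. With a pseudocount of 0.1 it was -2.29, and WRKY51 of subgroup IIc was lower, at -2.39. WRKY70 (AT3G56400, chr3:20908928-20910481, minus strand), its close relative, was the most abundant member in both genotypes. Its level was 34.2, 35.8 and 35.3 FPKM in mettl16 and 67.8, 70.8 and 72.7 FPKM in Col-0, with no overlap (log2 change -0.98, SE 0.035, limma adjusted p = 1.27e-08).

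WRKY53, a promoter of leaf senescence, had 4.35, 3.97 and 4.59 FPKM in mettl16 and 8.30, 8.52 and 6.95 FPKM in Col-0, a log2 change of -0.75 (limma adjusted p = 2.21e-05). Its gene overlaps AT4G23800 on the opposite strand by 341 bases, so reads there could be split between them. Overlaps of other members with genes on the opposite strand were shorter, at 26 bases for WRKY33 and 51 bases each for WRKY40 and WRKY69. The overlapping gene had 50.9, 51.2 and 51.1 FPKM in mettl16 and 50.8, 50.4 and 48.0 FPKM in Col-0 and did not pass (limma adjusted p = 0.307). WRKY46, which acts with WRKY70 and WRKY53 in defence and is also known from osmotic stress, was at 11.6, 12.3 and 12.9 FPKM in mettl16 and 17.0, 17.2 and 18.5 FPKM in Col-0. The libraries of the genotypes were again separate (log2 change -0.49, limma adjusted p = 1.76e-05).

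WRKY62 and WRKY38, a closely related pair known as negative regulators of basal resistance, were low in every library and lower in mettl16. WRKY62 had 0.280, 0.376 and 0.214 FPKM in mettl16 and 2.09, 1.62 and 1.49 FPKM in Col-0 (log2 change -1.08, limma adjusted p = 9.90e-06). WRKY38 had 0.377, 0.513 and 0.168 FPKM in mettl16 and 1.64, 1.49 and 1.47 FPKM in Col-0 (log2 change -0.91, limma adjusted p = 3.99e-05). In WRKY30, a gene induced by reactive oxygen, the values were 0.353, 0.350 and 0.257 FPKM in mettl16 and 1.26, 1.29 and 1.27 FPKM in Col-0 (log2 change -0.79, limma adjusted p = 1.55e-05). None of these 3 genes overlapped between genotypes, and at such levels the pseudocount of 1 FPKM makes the log2 change smaller than that of the FPKM values themselves. WRKY41, a factor of seed dormancy, had 1.43, 1.48 and 1.77 FPKM in mettl16 and 1.31, 1.39 and 1.36 FPKM in Col-0. Its difference was 0.12 (limma adjusted p = 0.205) and turned to -0.03 under quantile normalization.

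**Figure D2:**
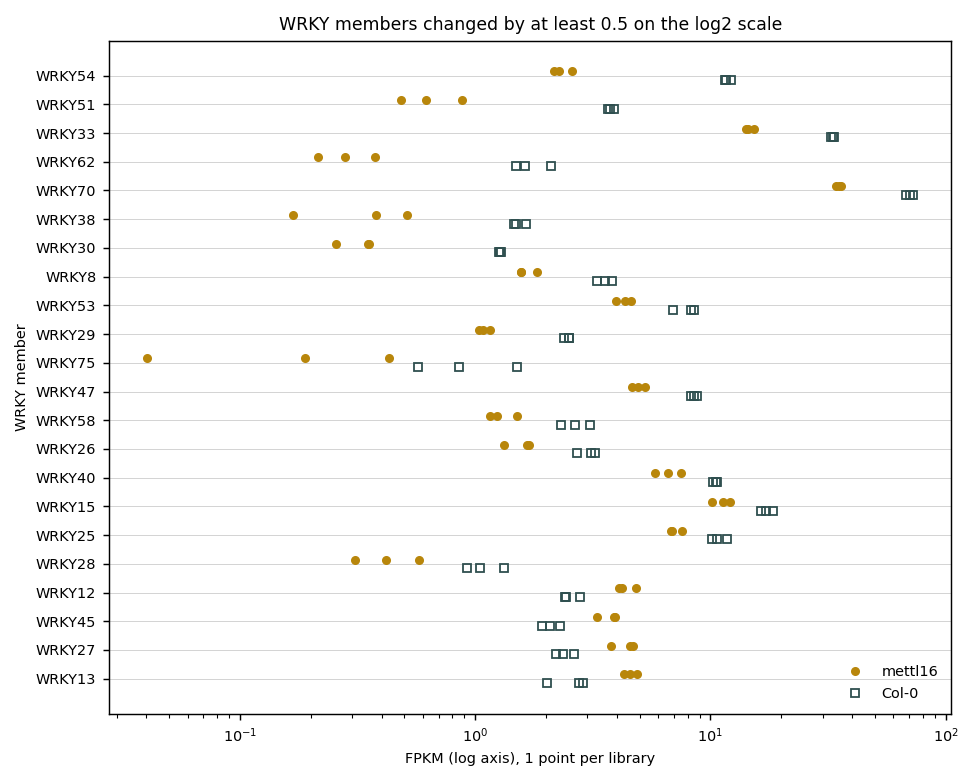
FPKM on a log axis of the 22 WRKY members that passed the test with a change of at least 0.5 on the log2 scale, with filled circles for the mettl16 libraries and open squares for the Col-0 libraries. In 18 members the circles lie left of the squares and in WRKY12, WRKY45, WRKY27 and WRKY13 they lie right of them, with no overlap in any of these genes.

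Of the 11 members of group I, 10 were tested. Of these 7 were lower, WRKY32 was higher and 2 did not pass, beside 23.4% lower and 41.1% higher among all tested genes. WRKY33 (AT2G38470, chr2:16108361-16110766, plus strand), a MAP kinase substrate that drives synthesis of the antifungal compound camalexin, had 14.2, 15.4 and 14.4 FPKM in mettl16, against 32.5, 33.7 and 33.1 FPKM in Col-0. The groups did not overlap (log2 change -1.12, SE 0.0399, limma adjusted p = 1.26e-08). Its relatives WRKY25 and WRKY26, which act with it in heat tolerance, were also lower. WRKY25 had 6.79, 6.87 and 7.60 FPKM in mettl16 and 10.7, 10.1 and 11.8 FPKM in Col-0 (log2 change -0.55, limma adjusted p = 4.22e-05). WRKY26 had 1.67, 1.32 and 1.70 FPKM in mettl16 and 3.11, 3.23 and 2.72 FPKM in Col-0 (log2 change -0.65, limma adjusted p = 0.000116). WRKY58, a negative regulator of systemic acquired resistance, had 1.50, 1.16 and 1.24 FPKM in mettl16 and 3.09, 2.66 and 2.31 FPKM in Col-0 (log2 change -0.68, limma adjusted p = 0.000185). In each of these relatives the highest mettl16 library stayed below the lowest Col-0 library.

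Smaller decreases were found in WRKY2, a factor of seed germination and of zygote polarity, at -0.25, and in WRKY3 and WRKY4, a pair that contributes to resistance against necrotrophic fungi, at -0.22 and -0.25. WRKY3 had 12.8, 14.8 and 14.3 FPKM in mettl16 and 16.1, 16.8 and 16.3 FPKM in Col-0, and WRKY4 had 6.87, 7.12 and 6.44 FPKM in mettl16 and 8.42, 8.52 and 7.88 FPKM in Col-0. Both genes were separate between genotypes (limma adjusted p = 0.00480 for WRKY3 and 0.00291 for WRKY4). WRKY32 was the only higher member of the group, by 0.25. WRKY44, also called TTG2, a factor of trichome and seed coat development, was at -0.13 (limma adjusted p = 0.148), and without the first Col-0 replicate it was at -0.19 and passed (limma adjusted p = 0.0387).

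WRKY20 had 16.8, 16.2 and 15.9 FPKM in mettl16 and 18.3, 17.7 and 10.3 FPKM in Col-0. The third Col-0 library lay below every other library, and the groups overlapped (log2 change 0.11, limma adjusted p = 0.701). Without that library the change was -0.14 and passed (limma adjusted p = 0.0284), so the direction for this gene rests on a single library.

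Subgroup IIa contains WRKY18, WRKY40 and WRKY60, pathogen-induced factors that bind one another and act together in defence and abscisic acid signalling. WRKY40 (AT1G80840) had 7.52, 5.84 and 6.59 FPKM in mettl16 and 10.6, 10.6 and 10.2 FPKM in Col-0, with no overlap (log2 change -0.59, limma adjusted p = 7.81e-05). WRKY18 had 14.4, 16.0 and 15.5 FPKM in mettl16 and 17.4, 18.3 and 17.3 FPKM in Col-0, a smaller and still separate decrease (log2 change -0.20, limma adjusted p = 0.00444). WRKY60 overlapped between genotypes, at 9.13, 8.50 and 10.2 FPKM in mettl16 and 11.0, 10.3 and 9.53 FPKM in Col-0, and did not pass (log2 change -0.13, limma adjusted p = 0.125). Without the third mettl16 replicate it did, at -0.20 (limma adjusted p = 0.0313).

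Subgroup IIb was mostly below the expression filter, with 5 of its 8 members not tested. Of its 3 tested members 2 were lower, beside 23.4% of all tested genes. WRKY42, a repressor of the phosphate exporter gene PHO1, did not pass at -0.11 (limma adjusted p = 0.304). WRKY47 (AT4G01720) had 4.65, 5.29 and 4.95 FPKM in mettl16 and 8.31, 8.53 and 8.76 FPKM in Col-0. The spread within each genotype was small beside the gap (log2 change -0.68, SE 0.0567, limma adjusted p = 4.08e-06). WRKY6, a factor of senescence and pathogen response that also represses PHO1, was at -0.39 (limma adjusted p = 0.000401).

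Subgroup IIc also had calls in both directions, with 4 members higher, 6 lower and WRKY57 not passing among 11 tested of 16, beside 41.1% higher and 23.4% lower among all tested genes. The higher ones included genes of stem and flowering biology. WRKY13 (AT4G39410, chr4:18332878-18334789, minus strand), which acts in stem development and delays flowering in short days, had 4.55, 4.86 and 4.30 FPKM in mettl16 and 2.01, 2.88 and 2.77 FPKM in Col-0. Its change of 0.66 (SE 0.0988, limma adjusted p = 0.000256) was the highest in the family on the log2(FPKM + 1) scale. With a pseudocount of 0.1 it was 0.83, and WRKY74 of subgroup IId was higher, at 0.87. WRKY12, which restrains secondary walls in pith and promotes flowering in short days, had 4.21, 4.84 and 4.09 FPKM in mettl16 and 2.44, 2.42 and 2.80 FPKM in Col-0 (log2 change 0.60, limma adjusted p = 9.59e-05). In both genes every mettl16 library was above every Col-0 library. WRKY45, an activator of phosphate uptake that is also linked to leaf ageing, had 3.95, 3.29 and 3.89 FPKM in mettl16 and 2.07, 2.29 and 1.92 FPKM in Col-0 (log2 change 0.60, limma adjusted p = 0.000127). WRKY23, an auxin-responsive factor of embryo and root development, was higher by 0.45 (limma adjusted p = 0.000676).

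The lower members of subgroup IIc were led by WRKY51 (AT5G64810, chr5:25908413-25909803, plus strand), which with WRKY50 mediates repression of jasmonate signalling by salicylic acid. It had 0.482, 0.876 and 0.617 FPKM in mettl16 and 3.75, 3.91 and 3.68 FPKM in Col-0. The Col-0 libraries were tightly grouped and far above those of mettl16 (log2 change -1.53, SE 0.0942, limma adjusted p = 4.54e-07). WRKY50 was at 4.93, 4.25 and 4.84 FPKM in mettl16 and 6.20, 6.42 and 5.86 FPKM in Col-0, also separate (log2 change -0.34, limma adjusted p = 0.00134). WRKY8, known from salt stress and virus defence, had 1.83, 1.56 and 1.57 FPKM in mettl16 and 3.30, 3.56 and 3.81 FPKM in Col-0 (log2 change -0.78, limma adjusted p = 1.36e-05). WRKY28, an activator of the salicylic acid synthesis gene ICS1, had 0.576, 0.308 and 0.419 FPKM in mettl16 and 1.33, 1.05 and 0.924 FPKM in Col-0 (log2 change -0.55, limma adjusted p = 0.00121). Neither of these genes overlapped between genotypes.

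WRKY75, a factor of phosphate starvation and of leaf senescence, had the largest standard error of the called members. It had 0.429, 0.0404 and 0.190 FPKM in mettl16 and 0.572, 1.51 and 0.854 FPKM in Col-0, separate only by a narrow gap (log2 change -0.68, SE 0.181, limma adjusted p = 0.00964). WRKY48, a negative regulator of basal resistance, was lower by a log2 change of -0.43 (limma adjusted p = 0.000348). WRKY57, which is known from drought tolerance, overlapped between genotypes at a difference of 0.04 (limma adjusted p = 0.601), and its sign turned under median centring and under quantile normalization, at -0.03 in both.

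Subgroup IId had calls in both directions. All 7 of its members were tested: 3 were higher, 2 were lower and 2 did not pass, with a median log2 change of 0.07. These shares are near the 41.1% higher and 23.4% lower of all tested genes, as is the median to the 0.08 of all tested genes. In the authors' annotation the term calmodulin binding fell on exactly these 7 members of the family, a known property of the subgroup. WRKY17 (AT2G24570, chr2:10437398-10439298, minus strand) had 17.4, 16.3 and 16.7 FPKM in mettl16 and 12.0, 11.6 and 11.9 FPKM in Col-0 (log2 change 0.47, SE 0.0409, limma adjusted p = 5.17e-06). Its close relative WRKY11, which shares with it a negative role in basal resistance to Pseudomonas, went the other way. WRKY11 had 23.9, 22.9 and 20.9 FPKM in mettl16 and 27.3, 28.3 and 26.2 FPKM in Col-0 (log2 change -0.26, limma adjusted p = 0.00136). The libraries of both genes were separate between genotypes.

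WRKY15, which acts in growth and osmotic stress, had 12.2, 11.4 and 10.2 FPKM in mettl16 and 18.4, 16.4 and 17.2 FPKM in Col-0, without overlap (log2 change -0.59, limma adjusted p = 3.33e-05). WRKY39, a factor of heat tolerance, was higher by 0.31 and WRKY74 by 0.38 (limma adjusted p = 9.38e-05 for WRKY39 and 0.00290 for WRKY74). WRKY7 had 8.29, 8.18 and 7.72 FPKM in mettl16 and 7.23, 7.92 and 7.70 FPKM in Col-0, which overlapped, and did not pass (log2 change 0.07, limma adjusted p = 0.249). WRKY21 was at -0.09 (limma adjusted p = 0.0853), and under median centring it was at -0.16 and passed (limma adjusted p = 0.00742).

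In subgroup IIe, 6 of 7 members were tested. WRKY27 was higher, 3 were lower and 2 did not pass, beside 41.1% higher and 23.4% lower among all tested genes. WRKY27, known for making plants more susceptible to bacterial wilt, had 3.78, 4.67 and 4.57 FPKM in mettl16 and 2.63, 2.36 and 2.22 FPKM in Col-0 (log2 change 0.65, SE 0.0851, limma adjusted p = 0.000101). WRKY29, placed downstream of the MAP kinase cascade that answers bacterial flagellin, had 1.16, 1.03 and 1.08 FPKM in mettl16 and 2.50, 2.50 and 2.40 FPKM in Col-0 (log2 change -0.73, limma adjusted p = 1.14e-05). Both genes were separate between genotypes, in opposite directions. WRKY22, placed beside WRKY29 in the same cascade, had 3.55, 3.81 and 3.95 FPKM in mettl16 and 4.37, 3.65 and 3.10 FPKM in Col-0. It overlapped and did not pass at 0.03 (limma adjusted p = 0.819), with a sign that turned under median centring (-0.04) and quantile normalization (-0.09). WRKY35 was at -0.09 (limma adjusted p = 0.370).

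The remaining lower calls of subgroup IIe were close to the threshold, as was that of POLAR. WRKY14 was at -0.29 (limma adjusted p = 0.0206) and lost its call without the first or the second mettl16 replicate or the third Col-0 replicate (limma adjusted p = 0.0672, 0.0606 and 0.0822). WRKY69 was at -0.18 (limma adjusted p = 0.0481) and lost it when any of the 6 libraries was left out (limma adjusted p of 0.0536 to 0.157). POLAR had 3.24, 2.86 and 3.00 FPKM in mettl16 and 4.01, 3.40 and 3.61 FPKM in Col-0 (log2 change -0.21, limma adjusted p = 0.0282), and it lost its call without the second or the third mettl16 replicate or the first or the third Col-0 replicate (limma adjusted p of 0.0547 to 0.0982). Its gene starts 250 bases past the end of WRKY18 on the same strand.

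The 14 members below the filter had means of at most 0.467 FPKM and no single value above 0.798 FPKM. They were WRKY10 of group I, WRKY31, WRKY36, WRKY61, WRKY72 and WRKY9 of subgroup IIb, WRKY43, WRKY49, WRKY56, WRKY59 and WRKY71 of subgroup IIc, WRKY65 of subgroup IIe, and WRKY55 and WRKY67 of group III. In WRKY36, WRKY55, WRKY56 and WRKY67 all mettl16 libraries were below all Col-0 libraries, and in none of the 14 did the opposite hold. How often either order occurs among all genes below the filter was not counted. WRKY56 and WRKY67 were listed at 0 in every mettl16 library and at only 0.0221 to 0.102 FPKM in Col-0, near the floor. WRKY55, a promoter of leaf senescence whose gene lies next to WRKY54 on the opposite strand with a gap of 1176 bases, had 0.270, 0.273 and 0.0356 FPKM in mettl16 and 0.651, 0.528 and 0.580 FPKM in Col-0. WRKY10, known as MINI3 from endosperm growth, was listed at 0 in every library other than the third of Col-0. WRKY71, a promoter of branching and flowering, overlapped between genotypes, at 0.245 to 0.369 FPKM in mettl16 and 0.278 to 0.477 FPKM in Col-0.

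Summed over the 63 members, WRKY transcripts reached 321 ± 1.40 FPKM in mettl16 and 425 ± 6.96 FPKM in Col-0 (SD, n = 3 each). WRKY70 and WRKY33 together were lower by 53.7 FPKM, which was 51.5% of the family's difference. Without these members the sums were 270 to 272 FPKM in mettl16 and 312 to 327 FPKM in Col-0, and still did not overlap. Group III summed to 56.7 ± 1.45 FPKM in mettl16 and 114 ± 1.78 FPKM in Col-0, and group I to 82.2 ± 1.43 FPKM in mettl16 and 110 ± 4.52 FPKM in Col-0 (SD, n = 3 each). The sums of subgroups IIc, IId and IIe overlapped between genotypes, at 36.3 to 38.5, 83.1 to 89.5 and 13.2 to 14.6 FPKM in mettl16, against 37.6 to 42.0, 88.0 to 90.0 and 14.2 to 15.2 FPKM in Col-0. The order of abundance also differed: WRKY70 and WRKY11 were in ranks 1 and 2 in mettl16, followed by WRKY17 in rank 3, a gene in rank 11 in Col-0, and WRKY54 was in rank 33 in mettl16 and rank 10 in Col-0.

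**Figure D3:**
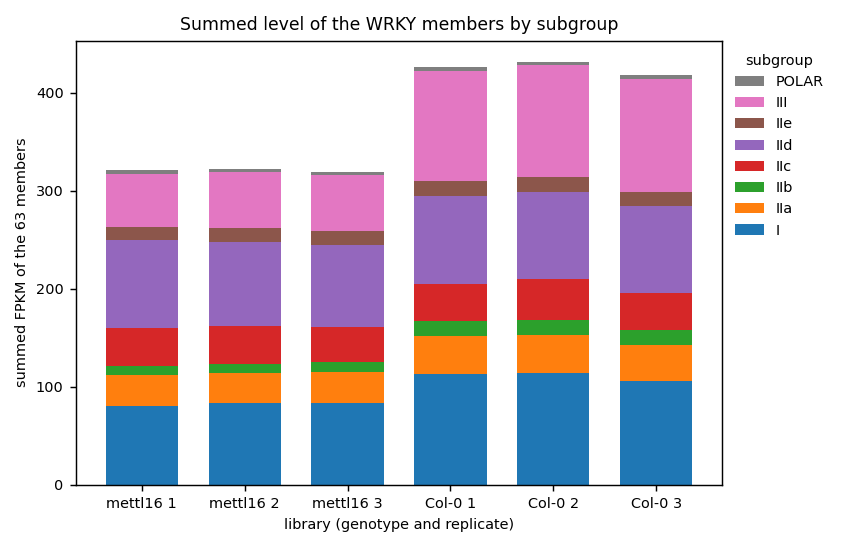
Summed FPKM of the 63 WRKY members in each RNA-seq library, with mettl16 on the left and Col-0 on the right and each bar split by subgroup. The mettl16 bars reach 319 to 322 FPKM and the Col-0 bars 418 to 432 FPKM, and the upper pink section, group III, is the one that differs most.

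Some close relatives differed between genotypes in their proportion to each other. These ratios of FPKM within a library were chosen after the values had been seen and carry no test. The ratio of WRKY17 to WRKY11 was 0.725, 0.713 and 0.795 in mettl16 and 0.438, 0.409 and 0.452 in Col-0. WRKY70 exceeded WRKY54 by 15.7, 15.7 and 13.7 times in mettl16 and by 5.53, 6.08 and 6.29 times in Col-0. Both pairs were separate between genotypes, and so were the next pairs. For WRKY50 over WRKY51 the ratio was 10.2, 4.86 and 7.83 in mettl16 and 1.65, 1.64 and 1.59 in Col-0. For WRKY22 over WRKY29 it was 3.07, 3.68 and 3.67 in mettl16 and 1.75, 1.46 and 1.29 in Col-0. In contrast, the ratios of WRKY38 to WRKY62, WRKY3 to WRKY4 and WRKY12 to WRKY13 overlapped between genotypes.

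The authors' functional annotation was used to sort the family by known role, with terms chosen after the results were known. Of 21 members annotated to a response to bacterium, fungus, chitin or salicylic acid, all were tested, 17 were lower and 2 were higher, with a median log2 change of -0.49, beside 23.4% lower and 41.1% higher among all tested genes. Among the 42 members with none of these terms, 28 were tested, 13 were lower and 7 were higher, with a median of -0.12, and the difference between these sets was not tested. The term for defence against bacteria covered 14 members, of which 11 were lower and 2, WRKY17 and WRKY27, were higher. For defence against fungi 6 of 7 were lower, for chitin 10 of 12 were lower and 1, WRKY17, was higher, and for salicylic acid 6 of 7 were lower. WRKY54 and WRKY70 carried none of the 4 terms.

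Genes around the WRKY factors were read from lists of their known partners. A list of MAP kinase cascade genes placed upstream of WRKY factors had 12 members, all tested. Of these 6 were lower, 1 was higher and the median log2 change was -0.10, beside 23.4% lower and 41.1% higher among all tested genes. The lower count was 5 with the replicate block and 7 with quantile normalization. It was also 5 when any single Col-0 replicate was left out. MAPKKK5 was close to the threshold (log2 change -0.11, limma adjusted p = 0.0473). MPK3, a kinase of WRKY33, had 29.0, 29.8 and 29.9 FPKM in mettl16 and 65.0, 70.9 and 65.9 FPKM in Col-0 (log2 change -1.16, limma adjusted p = 7.22e-09), while MPK6, which shares that substrate, was at 0.03 (limma adjusted p = 0.443) and MPK4 at -0.03 (limma adjusted p = 0.564). MPK11 was at -0.96, and the upstream kinases MKK1 and MKK9 were at -0.66 each (limma adjusted p = 4.64e-06 for MPK11, 1.18e-06 for MKK1 and 1.30e-05 for MKK9). VQ-motif proteins bind WRKY factors and tune their activity. Of 26 such genes 20 were tested, with 9 lower, 2 higher and a median of -0.16, again beside 23.4% and 41.1% of all tested genes. The lower count was 6 without the second Col-0 replicate and 13 with quantile normalization. SIB2, a partner of WRKY33, had 16.8, 14.0 and 15.1 FPKM in mettl16 and 39.9, 33.2 and 35.2 FPKM in Col-0 (log2 change -1.19), AT3G22160 and AT1G17147 were at -0.96 and -0.93, and AT3G15300 was higher by 0.60.

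Described targets of WRKY factors were called in both directions. Of 16 listed, 11 were tested, 5 were higher and 6 were lower, beside 41.1% higher and 23.4% lower among all tested genes. PR1, a salicylic acid marker gene, had 3.74, 4.35 and 3.70 FPKM in mettl16 and 25.7, 23.1 and 23.8 FPKM in Col-0 (log2 change -2.35, limma adjusted p = 1.99e-09). The camalexin genes CYP71A13 and PAD3, both targets of WRKY33, were at -1.60 and -1.54, and ICS1, a target of WRKY28, at -1.37. The higher ones were the flowering genes FT, FUL and LFY, the ethylene synthesis gene ACS6, a target of WRKY33, by 0.25 (limma adjusted p = 0.00146), and the phosphate exporter gene PHO1, by 0.26 (limma adjusted p = 0.00123). LFY averaged 1.61 FPKM in mettl16 and 0.387 FPKM in Col-0, below the filter, and entered the test through mettl16 alone. FT, the mobile flowering signal, had 14.9, 14.9 and 14.3 FPKM in mettl16 and 0.757, 0.876 and 0.734 FPKM in Col-0 (log2 change 3.13, limma adjusted p = 2.35e-10). FUL, a described target of WRKY12 and WRKY13, was higher by 1.87 (limma adjusted p = 7.88e-08). The floral organ markers given above moved with these flowering genes, and their part in the result was not tested.

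The m6A data were read from the authors' deposited table of peaks, which gives for each peak a log2 fold between genotypes and a false discovery rate (FDR). By the order of names in its title the fold was taken as mettl16 over Col-0. No column states this, and if the table runs the other way every peak direction given here turns. The table holds comparisons and not libraries, so no spread between replicates can be given. All positions are on TAIR10. Of the 14 WRKY peaks, 4 on 4 genes were lower in mettl16 at an FDR under 0.05, where 51.6% of all peaks were, and 3 were higher, where 17.6% of all peaks were. The other 7 did not pass, and the median log2 fold in the authors' deposited table was -0.24 for WRKY peaks and -0.23 for all peaks. A peak was listed for 20.4% of tested WRKY genes (10 of 49) and for 29.1% of all tested genes (5681). Members with a peak were more abundant, with a median of 8.21 FPKM against 3.37 FPKM for tested members without one, and 9 of the 23 members above 5 FPKM had a peak. Of the 5 most abundant members, WRKY33 and WRKY20 had a peak, and WRKY70, WRKY11 and WRKY18 had none. In the authors' annotation 8 WRKY peaks lay in 3′ UTRs and 6 in exons, a 3′ UTR share of 57.1%, against 78.9% of all peaks. With 14 peaks this share hangs on the labels of single entries. The WRKY50 entry, labelled exon 1, spans the whole gene, and the WRKY36 entry, in the last exon, reaches the gene's end. The WRKY40 entry, labelled 3′ UTR, lies mostly past its gene.

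WRKY47 carried peaks that moved in opposite directions within one gene. In the authors' deposited table, the peak in its last exon, exon 6 of 6 (chr4:747579-747933, plus strand), had a log2 fold of -0.63 (FDR 5.37e-07). The peak in its 3′ UTR (chr4:748081-748465) had a log2 fold of 0.81 (FDR 0.00324) in the authors' deposited table. These were the lowest and the highest fold among the called WRKY peaks, and both belong to a transcript that was lower in mettl16.

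The other lower peaks were small in size. In the authors' deposited table WRKY33 had a log2 fold of -0.29 (FDR 0.00501) in a peak of exon 1 of 5 (chr2:16108658-16109145, plus strand), near its 5′ end. WRKY7 had -0.39 (FDR 0.0309) in its 3′ UTR (chr4:12573371-12573725, plus strand), again in the authors' deposited table. WRKY20 had -0.20 (FDR 0.000631) in its 3′ UTR (chr4:13437071-13437637, minus strand) in the authors' deposited table. That is less negative by 0.03 than the median of all peaks, so its direction turned when folds were taken relative to that median. WRKY33 differed from these in that its transcript was lower, while those of WRKY7 and WRKY20 did not pass the test.

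Of the higher peaks, WRKY50 had a log2 fold of 0.52 (FDR 0.000794) in the authors' deposited table. This entry spans the whole gene (chr5:9147176-9148128, minus strand) in 3 blocks of 522 bases in total. The peak listed for WRKY40 (chr1:30385449-30385775) had a log2 fold of 0.32 (FDR 0.0126) in the authors' deposited table. All 327 of its bases lie within AT1G80850, a gene on the opposite strand, while 51 lie within WRKY40 and 276 are past its end. AT1G80850 had 6.42, 6.74 and 6.73 FPKM in mettl16 and 10.4, 10.1 and 9.62 FPKM in Col-0 (log2 change -0.53, limma adjusted p = 8.71e-06) and has no entry of its own, so the transcript that carries this mark cannot be told apart from the position.

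**Figure D4:**
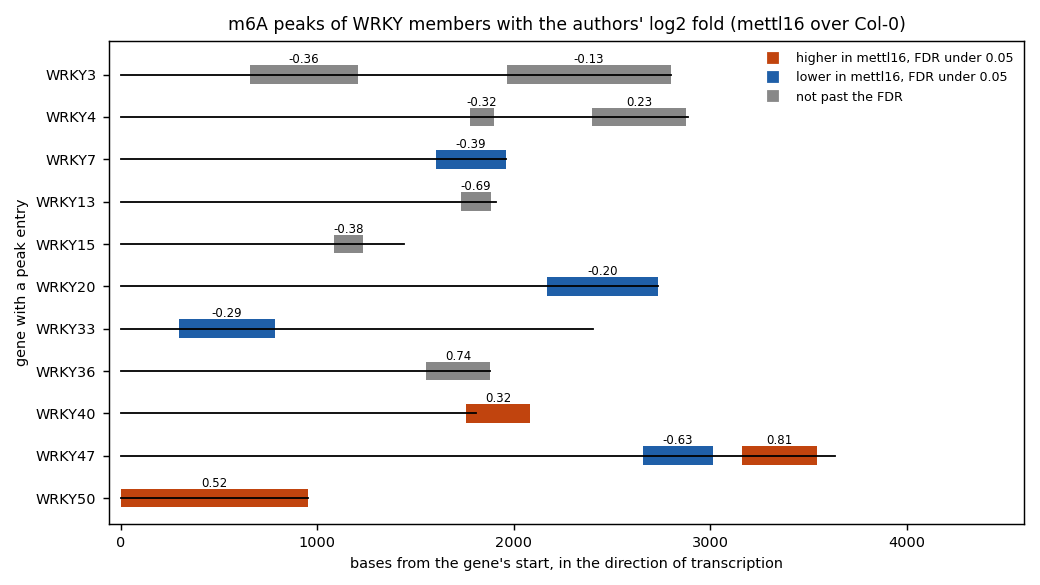
Positions of the 14 m6A peaks on the 11 WRKY genes that have one, in bases from the gene's start in the direction of transcription, with a line for the gene and a box for the peak labelled with the authors' log2 fold, mettl16 over Col-0. Blue boxes were lower and orange boxes higher in mettl16 at an FDR under 0.05, WRKY47 has one of each, and the WRKY40 box runs past the end of the gene.

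Peaks that did not pass the FDR had folds as large as some that did. In the authors' deposited table WRKY13 was at -0.69 (FDR 0.0851) and WRKY15 at -0.38 (FDR 0.0977), both in the 3′ UTR. WRKY36 was at 0.74 (FDR 0.179) in exon 4 of 4 in the authors' deposited table. Its transcript was below the expression filter, at 0.317, 0.170 and 0.283 FPKM in mettl16 and 0.649, 0.690 and 0.676 FPKM in Col-0. WRKY3 had -0.13 (FDR 0.0708) in the 3′ UTR and -0.36 (FDR 0.118) in exon 1 of 4 in the authors' deposited table. WRKY4 had 0.23 (FDR 0.0871) in the 3′ UTR and -0.32 (FDR 0.0676) in exon 2 of 4 in the authors' deposited table.

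Peak and transcript did not move in one fixed relation. With the fold read as mettl16 over Col-0, all 3 higher peaks are listed for genes whose transcripts were lower in mettl16, WRKY47, WRKY50 and WRKY40. The peak listed for WRKY40 lies wholly within AT1G80850, so the transcript that carries it cannot be told apart. The share of lower transcripts among all genes with a higher peak was not computed. Of the 4 lower peaks, those of WRKY47 and WRKY33 also lay on lower transcripts, and those of WRKY7 and WRKY20 on transcripts that did not pass. WRKY13, higher by 0.66 as a transcript, had the lowest fold of all WRKY peaks, which missed the FDR threshold. Of the 39 members called in expression, 31 had no listed peak, among them WRKY54, WRKY70 and WRKY51. The lower share was 7 of 10 among tested members with a peak and 23 of 39 among those without one, beside 23.4% of all tested genes. The difference between these sets of members was not tested, and members with a peak were more abundant. The lower share among all tested genes with a peak was not computed.

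**Figure D5:**
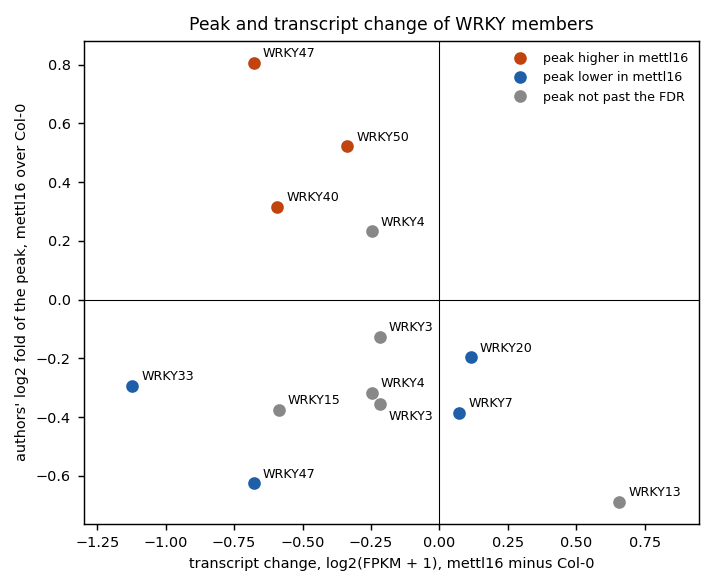
Authors' log2 fold of each m6A peak against the change of its transcript in log2(FPKM + 1), both for mettl16 relative to Col-0, for the 13 peaks on tested WRKY members. The 3 orange points, peaks higher in mettl16, all sit left of 0 on the transcript axis, and the blue points, peaks lower in mettl16, lie on both sides. The peak listed for WRKY40 lies wholly within AT1G80850 on the opposite strand and is drawn against the WRKY40 transcript.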

How the data were processed

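The 6 RNA-seq libraries and the m6A comparison were analysed from the authors' deposited tables. FPKM per gene and library were computed by the authors, per the file headers. Per the submitters' processing notes the build was TAIR10 and the tools included HISAT2, StringTie, HOMER, edgeR, fastp and cutadapt, without versions or roles. The libraries mark strand, per the labels' protocols, but the sources used here do not say whether counting used it. The peak table holds the authors' deposited log2 folds, a p-value for each peak, and score columns with the log10 of the p-value and FDR of the difference. How the replicates entered it is not stated. A deposited second sheet was not used.

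From these, FPKM were tested with limma 3.58.1 in R 4.3.3 on log2(FPKM + 1), with a trended and robust prior variance, on the 19505 genes that averaged 0.5 FPKM or more, two-sided, with Benjamini-Hochberg adjustment over all of them. Read depth is not stated in FPKM, and low values are the least precise. Tables and figures were made with pandas 2.3.3, SciPy 1.17.1, NumPy 2.4.6 and matplotlib 3.10.9 under Python 3.11.15. Symbols and synonyms came from RefSeq (TAIR10.1), and subgroups from the published classification of the family as generally known. Named with values of every library were members called with a change of at least 0.5, the 5 most abundant members and members with a peak, and the 4 largest called changes of each other list are named without this requirement. Further values were added after being seen. The members and lists were chosen with earlier results of these data known. Replicates are described as biological by the submitters, with no shared batch named. Alternatives were another pseudocount and filters, centring, quantile normalization, TPM scaling, a plain prior, a replicate block, leaving out each library, and other peak thresholds.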

Additional observations from a re-analysis of the deposited data

How the results depend on the processing

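Of the 39 called members, 36 kept their call and direction in each of the 14 alternative settings of the expression test in which they were tested, 27 of them lower and 9 higher in mettl16. With a minimum mean of 1 FPKM, 5 of these 36 were not tested (WRKY28, WRKY30, WRKY38, WRKY75 and WRKY74). In some settings WRKY14, WRKY69 and POLAR lost theirs. The count of lower members was 30 as reported and 26 to 35 across settings, with 27 to 29 when single libraries were left out. It was 29 with the replicate block, which left 9 higher members and removed only the call of WRKY69, and 29 without POLAR, an alternative added after seeing the data. Deviations of same-numbered mettl16 and Col-0 libraries correlated at -0.0823, 0.00866 and 0.00173, and not every library correlated best with its own number, so the numbers were not taken to pair samples. The count of higher members was 9 everywhere except 8 with a minimum mean of 1 FPKM. The median change of the members, -0.25 as reported, was -0.18 with no filter, -0.32 with median centring and -0.33 with quantile normalization, alternatives added for this value after seeing the data. With no filter, more genes are included. Signs that turned were those of members that had not passed. WRKY57 was at -0.0289 with median centring and -0.0337 with quantile normalization, and from -0.0040 to 0.115 when single libraries were left out. WRKY22 was at -0.0437 with median centring and -0.0921 with quantile normalization, and from -0.0688 to 0.127 when single libraries were left out. WRKY41 was at -0.0286 with quantile normalization. WRKY20 ranged from -0.137 to 0.253 when single libraries were left out. Median centring and quantile normalization added lower calls for WRKY21, WRKY44 and WRKY60, and quantile normalization also for WRKY35 and WRKY42. Median centring moved the change of every gene by the same amount, down in mettl16 relative to Col-0. Beyond this shift the cause was not tested. Of the 4 lower and 3 higher WRKY peaks, 1 lower and 2 higher remained past an FDR of 0.05 with a log2 fold of at least 0.5 in size, and the cause of the loss is the added size limit. With an FDR under 0.01 there were 3 lower and 2 higher, and relative to the median of all peaks 3 lower and 4 higher. Depth in reads is unknown, and values under 1 FPKM, as in WRKY75, are the least precise.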

Other observations

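RefSeq gives a WRKY number to 5 further genes of the table whose descriptions fall outside the rule. ZAP1, also called WRKY1, averaged 20.9 ± 1.61 FPKM in mettl16 and 22.7 ± 0.516 FPKM in Col-0 (SD, n = 3 each) and did not pass (log2 change -0.12, limma adjusted p = 0.0807). Among genes that join a WRKY domain to an immune receptor, RRS1, also called WRKY52, had 3.19, 3.43 and 3.66 FPKM in mettl16 and 4.66, 4.60 and 4.45 FPKM in Col-0 (log2 change -0.33, limma adjusted p = 0.00122). TTR1, also called WRKY16, was at -0.20 (limma adjusted p = 0.00698), and WRKY19 was higher by 0.26 (limma adjusted p = 0.00251). ABO3, also called WRKY63, was not tested, with 0.0414 to 0.218 FPKM in mettl16 and 0.384 to 0.447 FPKM in Col-0.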
